A study of Arabidopsis thaliana with 11 samples.

Results

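The binding sites (BSs) of APETALA1 (AP1) were compared between 2 and 4 days after floral induction, when meristem specification gives way to organ specification. The members were all peaks of the AP1 ChIP-seq lists for the 2 days, 1454 of the 18963 peaks in the 6 lists of the series, and 956 of them came from day 4. A day 2 peak was called kept when it shared at least 1 bp with a day 4 peak and lost otherwise. A day 4 peak with no such overlap was called newly called. Potential direct target genes were the loci that the authors had assigned to the peaks, and they were classed as kept, lost or newly assigned in the same way.

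All samples were inflorescences of ecotype Landsberg plants that carried a pAP1::AP1-GR transgene together with the ap1-1 and cal-1 mutations and were dipped in dexamethasone (DEX) each day. Both mutations and the transgene were shared by every group, mock controls included. AP1-GR joins AP1 to a glucocorticoid receptor domain that holds it outside the nucleus until DEX is given. It was driven by the AP1 promoter, so reads of that promoter can come from the transgene as well as from the AP1 locus. Chromatin bound by AP1-GR was recovered with an anti-GR antibody. For each day the labels name 2 biological replicates, which the authors pooled into 1 peak list, and 1 mock precipitation with pre-immune serum. For day 2 the sources differ, since the sample titles list 2 replicates and the series description gives 1. With pooled lists there was no spread between replicates, and the intervals below cover counting error over peaks or genes only. Read depth was not analysed here, and a deeper or cleaner library gives a longer list at the same threshold. Base calling used CASAVA 1.8 at day 2 and CASAVA 1.7 at day 4, so day and software version cannot be told apart.

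AP1 is a MADS-domain transcription factor that gives young meristems their floral fate and later acts with other MADS-domain proteins, SEPALLATA3 (SEP3) among them, in sepal and petal identity. MADS-domain dimers bind the CArG box, in which CC and GG flank a short stretch of A and T. Early in this course AP1 is known to repress flowering-time and shoot identity genes, and later to activate genes that pattern the floral organs.

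The windows below, of 50 bp on either side of a summit, are examples of kept, lost and newly called sites. Most of the windows were picked for a motif, and none has its summit in a coding exon. They are printed on the plus strand of the TAIR10 chromosomes, with CArG boxes and GA-rich runs in capitals. A minority of sites held a CArG box. At the 4 kept sites printed here it lay within 50 bp of the summit on both days, in day 4 windows upstream of the homeobox gene ATH1, in an intron of the carpel and stamen identity gene AG, in an intron of SEP3 and upstream of the fruit MADS-box gene SHP2.
ATH1, kept, chr4:15918177-15918277: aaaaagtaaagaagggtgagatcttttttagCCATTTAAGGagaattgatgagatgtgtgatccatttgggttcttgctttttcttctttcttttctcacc
AG, kept, chr4:10386505-10386605: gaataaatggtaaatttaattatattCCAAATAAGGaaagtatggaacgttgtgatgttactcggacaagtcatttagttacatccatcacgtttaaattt
SEP3, kept, chr1:8595063-8595163: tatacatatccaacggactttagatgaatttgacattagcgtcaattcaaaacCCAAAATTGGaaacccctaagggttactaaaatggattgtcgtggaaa
SHP2, kept, chr2:17819808-17819908: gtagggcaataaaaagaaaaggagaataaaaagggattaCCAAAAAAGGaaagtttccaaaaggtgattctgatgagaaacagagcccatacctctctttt
The 5′ UTR of SPL2, a squamosa promoter-binding-like gene, held the single lost site with a CArG box, and 227 bp from its summit a newly called day 4 summit with a GA-rich run and no CArG box.
SPL2, lost at day 4, chr5:17363646-17363746: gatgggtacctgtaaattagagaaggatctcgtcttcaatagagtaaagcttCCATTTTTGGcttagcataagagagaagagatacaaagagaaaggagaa
SPL2, newly called, chr5:17363419-17363519: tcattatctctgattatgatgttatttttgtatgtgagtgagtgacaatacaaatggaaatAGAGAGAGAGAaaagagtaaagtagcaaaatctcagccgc
Newly called sites with a CArG box lay in the promoter of the meristem identity gene LMI1 and 235 bp past the end of the organ growth gene JAG, while the newly called site of highest fold enrichment, in the promoter of GRF2, held neither motif.
LMI1, newly called, chr5:1004620-1004720: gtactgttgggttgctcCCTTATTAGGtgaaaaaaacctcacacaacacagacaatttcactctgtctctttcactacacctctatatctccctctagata
JAG, newly called, chr1:25684029-25684129: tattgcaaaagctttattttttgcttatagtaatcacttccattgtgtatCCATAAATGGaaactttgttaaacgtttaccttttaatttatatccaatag
GRF2, newly called, chr4:17728031-17728131: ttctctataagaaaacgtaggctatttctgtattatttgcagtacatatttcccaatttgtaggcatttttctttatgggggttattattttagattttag
A GA-rich run without a CArG box also lay at some kept sites, such as the day 4 window in the 5′ UTR of the auxin response factor gene ARF3.
ARF3, kept, chr2:14328876-14328976: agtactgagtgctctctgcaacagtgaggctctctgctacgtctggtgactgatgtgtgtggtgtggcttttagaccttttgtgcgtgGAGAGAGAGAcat

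Most day 2 BSs were still called at day 4, and most day 4 BSs were not called at day 2. At day 2, 416 peaks were kept (83.5%, Wilson 95% interval 80.0 to 86.5%) and 82 were lost. Of the 956 day 4 peaks, 564 were newly called (59.0%, 55.8 to 62.1%) and 392 overlapped a day 2 peak. When the day 4 list was limited to its peaks of highest fold enrichment, as many as the day 2 list held, 41.0% of these were newly called and 63.5% of day 2 peaks were kept.

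Over the kept pairs the summit moved by a median of 36 bp between the days, and 414 of the 416 kept day 2 peaks met a single day 4 peak. Day 4 peaks were wider, with a median of 267 bp against 177.5 bp and a lowest width of 146 bp against 64 bp, and 21 of them joined several day 2 peaks (17 joined 2, 3 joined 3 and 1 joined 4). With a reciprocal overlap of 50% in place of 1 bp the share of day 2 peaks kept was 51.0%, and with summits within 150 bp it was 75.3%. The widest day 4 peak, of 1862 bp, ran from upstream of GRF5 into its 5′ UTR and joined 4. The smallest overlap that counted as kept was 5 bp for a day 2 peak near MYB95 and 3 bp for a day 4 peak near KNAT6. The closest peaks on the other side of the rule were those of SPL2, with 55 bp between them, and a pair at AT5G49100 with 90 bp between them. No lost peak had a day 4 summit within 150 bp, and 12 of 82 had one within 1000 bp. For newly called peaks 37 of 564 had a day 2 summit within 1000 bp.

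The share of kept sites followed peak height within each list. Fold enrichment is the ratio of signal at the summit to the control background, and since each list was called against its own mock it was ranked within a list. From the highest to the lowest quintile of day 2 fold enrichment, 98.0%, 87.0%, 85.9%, 77.0% and 70.0% of peaks were kept. The corresponding shares of day 4 peaks that were already called at day 2 were 74.9%, 53.9%, 37.2%, 19.4% and 19.8%. The intervals of the 2 lowest day 4 quintiles overlapped (14.4 to 25.6% and 14.8 to 26.0%).

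**Figure D1:**
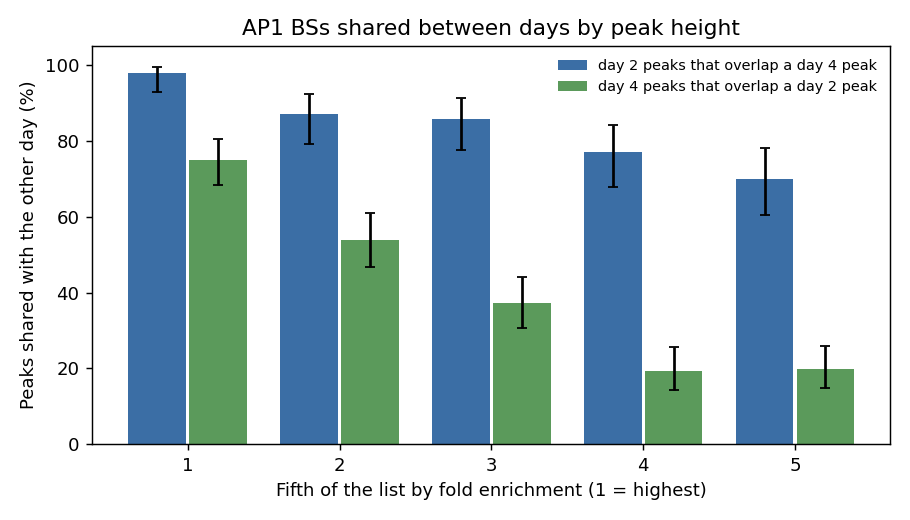
Share of AP1 peaks shared with the other day (%), by quintile of fold enrichment within the list (1 is the highest), with Wilson 95% intervals as bars. The day 2 shares run from 98.0% to 70.0% and the day 4 shares from 74.9% to 19.8%.

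Lost peaks had a median fold enrichment of 3.54 (2.22 to 6.57), against 4.20 for kept peaks of the same list (2.40 to 10.46). Newly called peaks had a median of 3.87 (2.04 to 8.05), against 4.94 for the kept peaks of day 4 (2.05 to 9.19). The ranges overlapped widely in both lists. Over the 416 kept pairs the fold enrichments of the 2 days had a Spearman's rho of 0.45. This is a description over peaks, some of which share a day 4 peak. Of these pairs 277 stood at a higher percentile rank at day 4, 139 at a lower rank, and 64 moved by more than 50 percentile points. Percentile rank depends on the rest of each list. Kept peaks had a median percentile of 54.7 at day 2 and 71.3 at day 4, where newly called peaks had 37.4. A higher rank at day 4 therefore does not measure stronger binding.

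**Figure D2:**
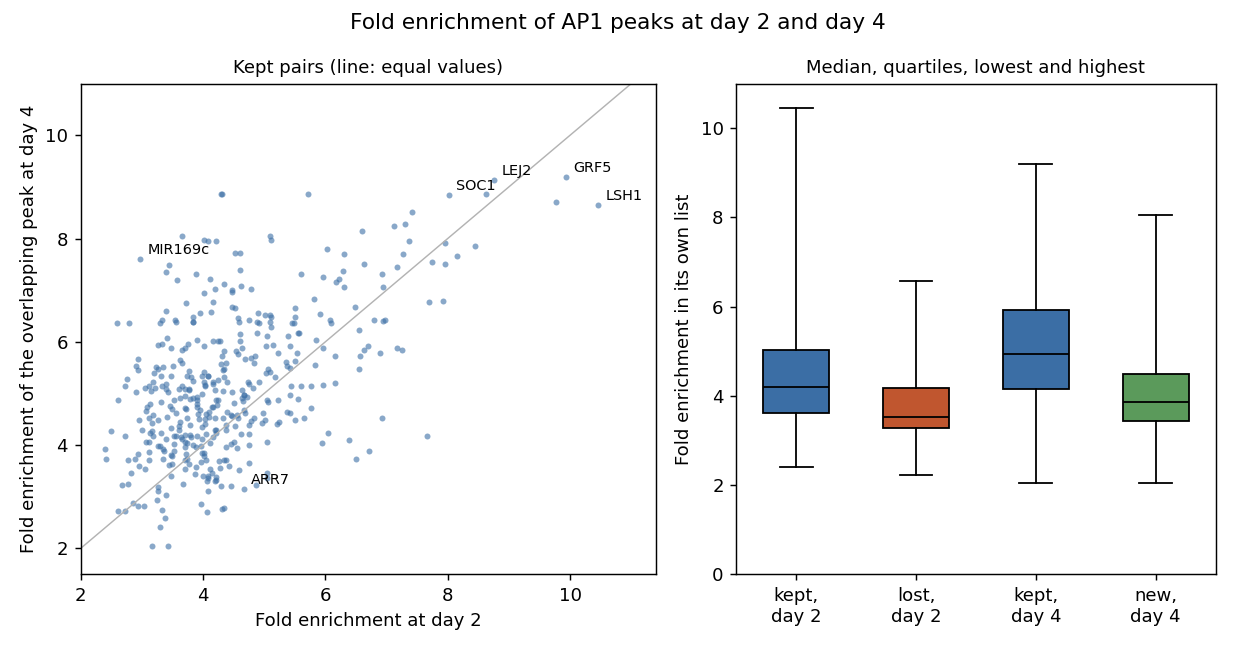
Left, fold enrichment of each kept day 2 peak (x axis) against the highest overlapping day 4 peak (y axis), with a line at equal values. Right, box plots of fold enrichment for kept, lost and newly called peaks in their own lists, with median, quartiles, lowest and highest; medians are 4.20 and 3.54 at day 2, and 4.94 and 3.87 at day 4.

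The sites that led the day 2 list also led the day 4 list. The site in LSH1, a gene of the ALOG family of nuclear proteins, had a fold enrichment of 10.46 and rank 1 at day 2, and 8.65 and rank 6 at day 4. A site 2016 bp upstream of GRF5, a growth-regulating factor gene, had 9.93 and rank 2 at day 2. Its day 4 partner had 9.19 and rank 1, and another GRF5 site nearer the gene had 8.63 at day 2 and 8.87 at day 4. The site shared by AT3G26700 and CCB1, a gene for assembly of a photosynthetic complex, had 9.77 at day 2 and 8.71 at day 4. The site assigned to LEJ2, a gene for a CBS-domain protein, had 8.76 at day 2 and 9.13 at day 4, and SOC1, a flowering-time MADS-box gene, had 8.02 and 8.84 at its start. Each of these sites stood among the 10 highest peaks of both lists.

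A few kept sites changed place. The site at MIR169c, a microRNA gene, stood at rank 462 at day 2 with a fold enrichment of 2.97, and at rank 23 at day 4 with 7.60. Sites upstream of MYB37, a regulator of axillary meristems, had 2.59 and 2.79 at day 2 and met a day 4 peak of 6.36. That peak joined 3 day 2 peaks, and the other, with the same summit as the day 4 peak, had 3.30. The summits of the named sites lay 168 and 345 bp from it. In the other direction, the site 126 bp upstream of ARR7, a negative regulator of cytokinin response, went from 4.67 and rank 143 to 3.15 and rank 871. The site of AT2G41380 went from 5.05 and rank 102 to 3.37 and rank 802, and a site on chromosome 2 with no assigned gene from 4.86 and rank 120 to 3.23 and rank 857.

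The 5 highest lost peaks stood at ranks 35 to 120 of the day 2 list. Of these, a pair on chromosome 4 had no assigned gene, with fold enrichments of 6.57 and 5.81, ranks of 35 and 61 and widths of 74 and 64 bp. The others were at SPL2 (4.92), at 4 loci that end with the calcium-dependent kinase gene CPK15 (4.90), and at AT3G05160 (4.86). The 5 highest newly called peaks stood at ranks 11 to 55 of the day 4 list. They were the highest of 564 newly called peaks, and the lost peaks above were the highest of 82. The GRF2 site, 172 bp upstream, had 8.05 and rank 11 at day 4, followed by sites at AT3G57800 (7.22), at no assigned gene on chromosome 5 (7.06), at AT1G68780 and LINC3 (6.83), and at AT4G34790 and its neighbours (6.71).

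Lost sites lay in coding exons more often than kept sites. Summits of 26 of the 82 lost peaks (31.7%, 22.6 to 42.4%) fell in a coding exon, against 9 of 416 kept peaks (2.16%, 1.14 to 4.06%). The odds ratio of kept against lost was 0.0476, and the two-sided Fisher's exact test over peaks gave p = 2.27e-15 and 2.27e-14 after Benjamini-Hochberg adjustment over 10 tests. Peaks are not biological replicates, so each such p describes these pooled lists and not a population of plants. The difference remained with 1 peak for each group of summits within 3000 bp, where 15 of 67 lost and 3 of 327 kept peaks lay in coding exons (adjusted exact p = 3.73e-09). At day 4 the share was 1.28% of kept and 0.709% of newly called peaks (adjusted exact p = 0.624).

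The 26 lost coding-exon summits belonged to 17 genes, 6 of which held more than 1. SZF1, a salt-inducible zinc finger gene, held 4, with fold enrichments from 2.72 to 3.39, and AT1G18740 held 3. Other members were the stress-responsive zinc finger gene RHL41 (3.75), the ethylene-response repressor ERF4 (3.65), the transcription factor genes MYB73 (2.84) and RAP2.4 (2.66), the ubiquitin ligase gene RDUF1 (2.57 and 3.08), the RNA-binding protein gene GRP7 (3.83), the polyubiquitin gene UBQ10 (3.06), EXO and EXL2 of the EXORDIUM family (2.72 and 3.40), and the mitochondrial carrier gene DIC2 (4.54). These summits lay well inside the genes, at 342 bp in AT4G32020 to 2023 bp in SZF1 from the gene start.

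The lost coding-exon sites were called again elsewhere in the series more often than other lost sites. At AP1 day 8, 19 of the 26 (73.1%) were overlapped by a peak, against 10 of the 56 lost sites outside coding exons (17.9%). All 26 overlapped a SEP3 peak of day 2 and 25 a SEP3 peak of day 4, against 37 and 46 of the 56. The SEP3 day 2 samples are titled as day 2 but carry a tissue label of 4 days, and every SEP3 day 2 value has that doubt. The GC content of the summit window had a median of 52.5% at the lost coding-exon summits, 39.6% at the other lost summits and 36.6% at kept summits outside coding exons. The part of GC content and of read depth in these differences was not tested. These comparisons were made after the coding-exon share was seen and have no test.

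**Figure D3:**
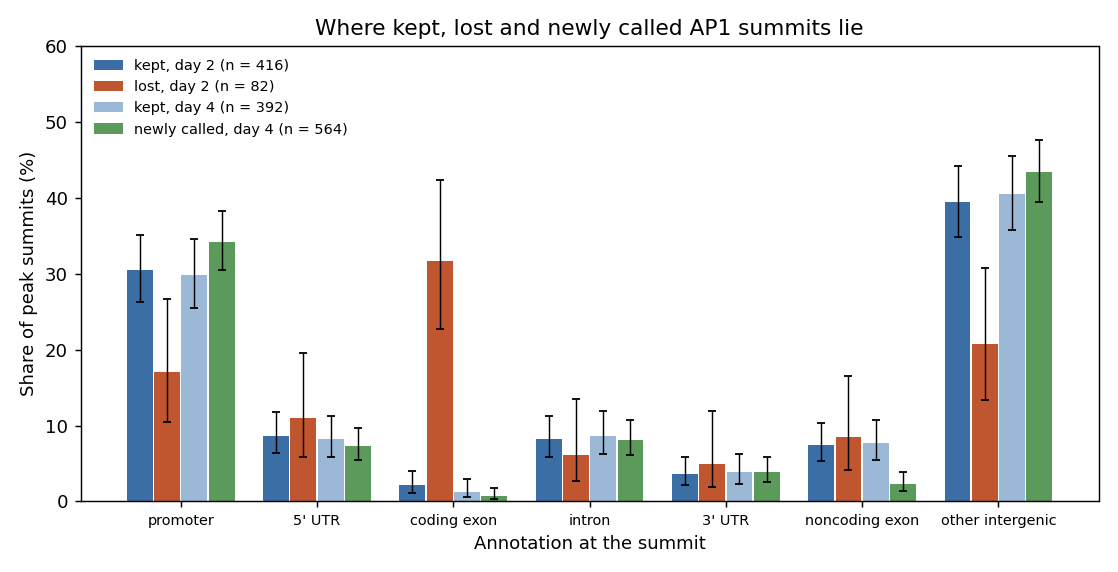
Share of peak summits (%) by annotation at the summit for kept and lost day 2 peaks and kept and newly called day 4 peaks, with Wilson 95% intervals. Coding exons hold 31.7% of lost summits and 0.709 to 2.16% in the other 3 classes.

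Kept summits lay within 1000 bp upstream of a gene in 30.5% of cases (127 of 416) and lost summits in 17.1% (14 of 82; adjusted exact p = 0.0454). Outside coding exons these shares were 31.2% and 25.0% (adjusted exact p = 0.662). Newly called summits lay there in 34.2% of cases and the kept summits of day 4 in 29.8%, a difference that did not pass the test (adjusted exact p = 0.230).

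The CArG box was sought as CC and GG around exactly 6 A or T within 50 bp of the summit. The box reads the same way on both strands, and 0.594% of all windows of this length in the nuclear genome held it. It was found at 34 of 416 kept day 2 peaks (8.17%, 5.91 to 11.2%) and at 1 of 82 lost peaks (1.22%, 0.216 to 6.59%), the SPL2 site printed above (adjusted exact p = 0.0454). Outside coding exons the same difference did not pass the test (8.35% against 1.79%, adjusted exact p = 0.260). At day 4 it was found at 7.91% of kept and 4.96% of newly called peaks (adjusted exact p = 0.125). A missing box says only that these letters were not in the window.

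The GA-rich motif, 8 alternating G and A (GAGAGAGA or AGAGAGAG, on either strand), was found in 2.08% of genome windows. It was found at 34 of 392 kept day 4 peaks (8.67%, 6.27 to 11.9%) and at 22 of 564 newly called peaks (3.90%, 2.59 to 5.84%), an odds ratio of 2.34 (adjusted exact p = 0.0148). With 1 peak for each group of summits within 3000 bp the shares were 7.62% and 4.60% and the call was lost (adjusted exact p = 0.153). Among day 2 peaks the motif was found at 8.89% of kept (6.52 to 12.0%) and 8.54% of lost sites (4.20 to 16.6%; unadjusted exact p = 1). The 5′ UTR held 12 of the 37 kept day 2 windows with the motif, those of ARF3, GRF3, SPL8 and SVP among them. Both motifs stood together in the day 2 window of AP2 and in 2 day 2 windows in all.

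SEP3 was called at nearly every AP1 site at day 4. A SEP3 day 4 peak overlapped 391 of 392 kept and 563 of 564 newly called sites (99.7% and 99.8%, unadjusted exact p = 1). At day 2 a SEP3 day 2 peak overlapped 86.8% of kept and 76.8% of lost sites (adjusted exact p = 0.0536), and outside coding exons 86.7% and 66.1% (adjusted exact p = 0.00280). Among peaks with −log10 q under 10 the shares were 79.7% and 75.3% (adjusted exact p = 0.713). Kept day 2 peaks were also wider than lost ones (medians of 201 and 104.5 bp), and the part of width was not tested. Of the newly called AP1 sites, 255 of 564 (45.2%, 41.2 to 49.3%) overlapped a SEP3 day 2 peak, against 346 of 392 kept day 4 sites (88.3%, 84.7 to 91.1%). The SEP3 list held 1776 peaks at day 2 and 6843 at day 4, so SEP3 shares cannot be compared directly between the days. AP1 itself was called at day 8 at 64.5% of newly called sites (60.5 to 68.4%) and at 68.4% of kept sites (63.6 to 72.8%).

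The deposited lists assigned 527 loci at day 2 and 1045 at day 4. Of the day 2 genes 431 were kept (81.8%, 78.3 to 84.8%) and 96 were lost, and 614 of the day 4 genes were newly assigned (58.8%, 55.7 to 61.7%). Kept genes were bound through kept peaks in 423 of 431 cases, and 8 had different peaks on the 2 days only, SPL2 and the peptide gene CLE43 among them. Of the kept genes 66 had more peaks at day 4, 21 had fewer and 344 had the same number. Of the 491 newly called peaks with a gene, 68 (13.8%) lay at a gene already assigned at day 2, beside the 1.78% of all protein-coding genes assigned then. By the highest peak of each annotated gene, 66.3% of kept, 53.2% of lost and 65.9% of newly assigned genes were bound upstream, at a median of 1374 bp for kept genes at day 2, 1620 bp for lost genes and 1287 bp for newly assigned genes, and 25.5% of lost genes were bound inside the gene, beside 16.9% of kept and 14.1% of newly assigned genes. Of all 27444 annotated protein-coding genes, 1.78% were assigned at day 2 and 3.55% at day 4. The kept genes made up 1.46%, the lost genes 0.324% and the newly assigned genes 2.09% of them.

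The loci with the most peaks changed in different ways. SOC1 had 5 peaks at day 2, all kept, and 4 at day 4, of which 1 joined 2 day 2 peaks. GRF5 had 5 and 2, and 4 of the 5 lay under the 1862 bp day 4 peak. AT1G75580 had 1 and 5, and TT7, a gene for a flavonoid hydroxylase, had none at day 2 and 5 at day 4. GRP7 had 4 peaks at day 2 and 1 at day 4, which joined 2 day 2 peaks.

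A set of 210 genes in 10 lists covered known regulators of flowers, meristems, organs and hormones. At day 2, 54 of them were assigned (25.7%), and at day 4, 73 (34.8%), beside 1.78% and 3.55% of all protein-coding genes. Of the 54, 50 were kept (92.6%, beside 81.8% of all day 2 genes), and 23 of the 73 were newly assigned (31.5%, beside 58.8% of all day 4 genes). The lists were chosen with earlier results of these data known, so these shares only describe the lists chosen. Kept shares also rose with peak height, and the part of height here was not tested. The best peak of a kept list gene had a median fold enrichment of 4.91 at day 2 and 5.61 at day 4, and that of a newly assigned list gene 4.07 at day 4. Over all kept peaks the medians were 4.20 at day 2 and 4.94 at day 4. Each list was called against its own mock, so the pairs of values given for genes do not measure a change in binding.

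**Figure D4:**
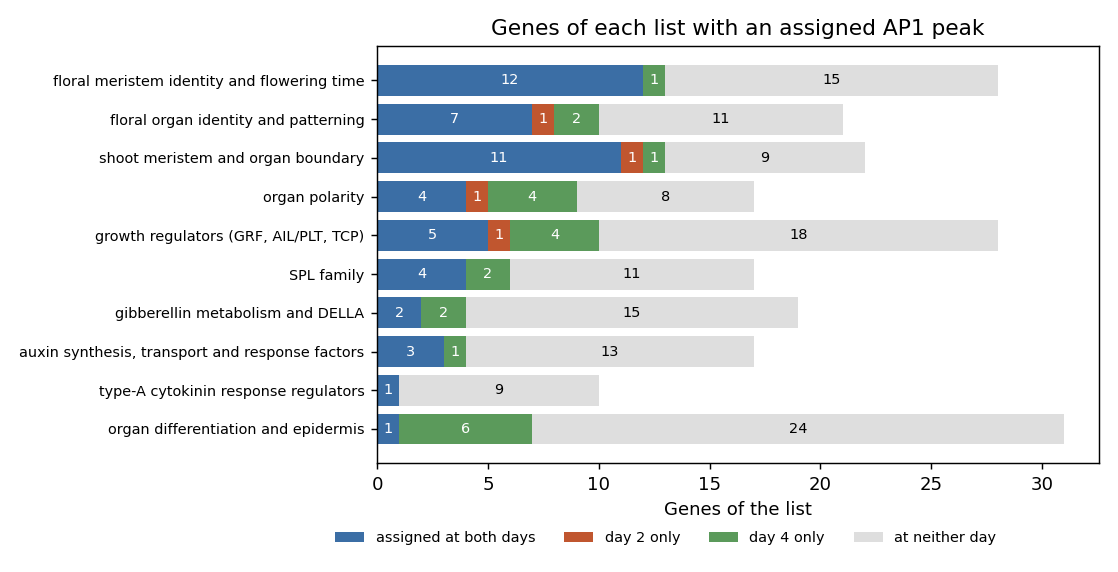
Number of genes in each of the 10 lists with an AP1 peak assigned at both days, at day 2 only, at day 4 only or at neither day. Meristem identity and flowering time has 12 kept and 1 newly assigned gene, while organ differentiation and epidermis has 1 kept and 6 newly assigned. Over all assigned genes 431 were kept and 614 newly assigned.

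Of 28 genes of floral meristem identity and flowering time, 12 were kept, 0 lost and 1 newly assigned, and 15 were assigned at neither day. The kept members held flowering-time repressors and activators, such as SOC1 at its start (8.02 at day 2 and 8.84 at day 4), FD, the bZIP partner of florigen (8.45 and 7.85), AP2, an organ identity gene and floral repressor (7.36 and 7.95), and SMZ, an AP2-type floral repressor (6.90 and 5.79). SVP, a MADS-box floral repressor, had 5.14 and 5.93. LFY, which with AP1 specifies floral fate, was newly assigned through 3 peaks, at 4.48 inside the gene, 3.78 at 111 bp upstream and 3.50 at 1130 bp upstream. FUL, a MADS-box gene close to AP1, kept its peaks near the start and 958 bp upstream and gained peaks 2313 bp upstream (6.01) and in an intron (5.79). TEM1, a floral repressor, had 1 peak at day 2 and 4 at day 4.

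The AP1 locus had 4 peaks at day 2 and 3 at day 4, the highest at 2562 bp upstream with a fold enrichment of 4.75 and then 4.00. All 4 day 2 peaks were kept, and a day 4 peak of 915 bp joined 2 of them. Since the transgene carries the AP1 promoter, endogenous and transgenic copies cannot be told apart here.

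Genes of floral organ identity and patterning gave 7 kept, 1 lost and 2 newly assigned of 21. The B-class gene AP3 was kept at low rank (4.07 at day 2 and 3.31 at day 4). Its partner PI was lost, with a narrow day 2 peak of 71 bp and a fold enrichment of 3.72 in its 5′ UTR, and was assigned again at AP1 day 8. The C-class gene AG was kept (5.61 and 5.15), as were SEP3 (7.95 and 7.92), SEP4 (4.89 and 6.39) and SAP, a regulator of organ patterning. SAP was bound at separate sites, with 5.44 at day 2 and 5.14 at day 4 at 4560 bp from its start, and with 5.03 and 5.92 at an intron site. JAG, which promotes organ growth, had no peak at day 2 and 4 at day 4 (5.16, 5.06, 4.73 and 3.18). PTL, which shapes the perianth, was newly assigned with 3.17.

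Genes of the shoot meristem and organ boundary gave 11 kept, 1 lost and 1 newly assigned of 22. ATH1 was high on both days (7.13 and 8.24), and so were the boundary genes BOP1 (6.29 and 7.38) and LSH1. LSH4 had 5.95 and 4.05, and CUC3, a boundary NAC gene, had 3.31 and 5.34. CLV1, the receptor kinase that limits meristem size, was lost from a day 2 peak of 3.28. WOX1, a homeobox gene of blade outgrowth, was newly assigned through 2 peaks.

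Polarity genes gave 4 kept, 1 lost and 4 newly assigned of 17. The adaxial genes PHB (3.83 and 6.39) and PHV were kept, and their relative REV was newly assigned at 2.97. PHV had a site upstream with 4.01 at day 2 and 6.94 at day 4, and a site past its end with 4.67 and 4.68. Of the abaxial genes, KAN3 was kept (4.39 and 4.64), while KAN1 (3.21), KAN2 (5.12, 3 peaks) and YAB1 (2.81) were newly assigned. AS1, a MYB gene of leaf polarity, was kept (6.98 and 6.43). CRC, a YABBY gene of carpels and nectaries, was lost from a day 2 peak of 3.44 at 2660 bp upstream.

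**Figure D5:**
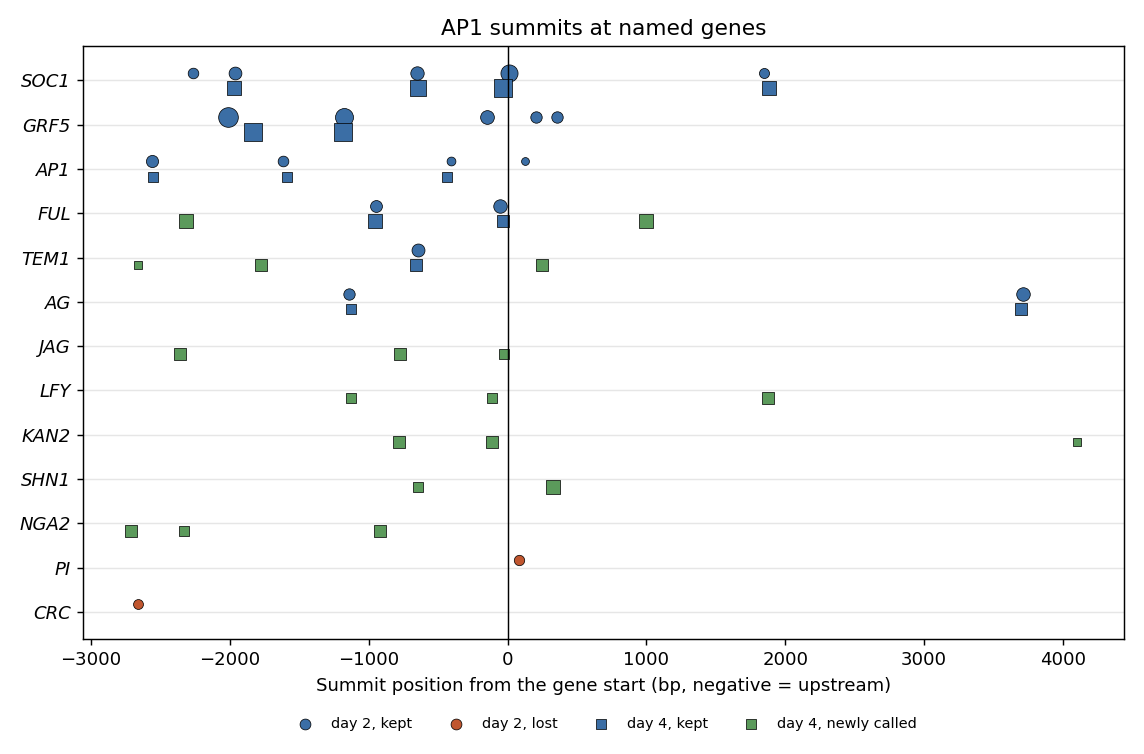
Summit positions from the gene start (bp) at 13 named genes, with circles for day 2 and squares for day 4, larger for higher fold enrichment. FUL, TEM1, JAG, LFY, KAN2, SHN1 and NGA2 have newly called summits; summits past the gene end, such as that of JAG at 235 bp, are not drawn.

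Growth regulators of the GRF, AIL/PLT and TCP families gave 5 kept, 1 lost and 4 newly assigned of 28. GRF3 (5.10 and 6.39), GRF5 and GRF7 (4.32 and 5.46) were kept, GRF4 was lost from a peak of 3.50, and GRF2 was newly assigned. BRC1, which holds back axillary buds, was kept (4.62 and 7.09) and its relative BRC2 was newly assigned (3.63), as were PLT1 (4.04) and TCP5 (3.70). The SPL family, which promotes phase change, gave 4 kept, 0 lost and 2 newly assigned of 17. SPL9 had 5.10 with 1 peak at day 2 and 6.52 with 3 peaks at day 4, and SPL5 was newly assigned through 3 peaks of up to 4.75.

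Gibberellin genes gave 2 kept and 2 newly assigned of 19, with the inactivating oxidase gene GA2OX1 kept (4.24 and 6.01), GA2OX8 newly assigned (5.15) and the DELLA repressor gene RGL2 newly assigned (4.33). Auxin genes gave 3 kept and 1 newly assigned of 17, with the kinase gene PID kept (5.05 and 3.47). The type-A cytokinin response regulators gave ARR7 alone of 10.

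Of 31 genes of organ differentiation and the epidermis, 1 was assigned at day 2 (3.23%), 7 at day 4 (22.6%) and 24 at neither day. Over all annotated protein-coding genes the shares assigned were 1.78% and 3.55%, and 58.8% of all day 4 genes were newly assigned. With so few genes, in a list chosen with earlier results known, the difference between the days was not tested. The style regulator NGA1 was kept (4.55 and 3.95). Newly assigned were its relatives NGA2 (4.66, 3 peaks) and NGA3 (6.03, 2 peaks), the epidermal regulator SHN1 (5.72, 2 peaks), the carpel gene HEC1 (4.07), the anther gene TGA9 (3.88) and the trichome repressor TRY (3.66). All 6 of these were assigned at AP1 day 8, beside 63.5% of all newly assigned genes. In the 210 genes as a whole, 15 of the 23 newly assigned, 41 of the 50 kept and 1 of the 4 lost genes were assigned at AP1 day 8 (65.2%, 82.0% and 25.0%), beside 63.5%, 72.6% and 43.8% of all newly assigned, kept and lost genes.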

How the data were processed

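The members and gene lists were chosen with earlier results of these data known. Per the labels and the study's methods, the authors mapped reads with Bowtie 0.12.7 to the nuclear genome, kept uniquely mapped reads, and called peaks with MACS2 on pooled replicates against the mock of the same day. They assigned genes from 3000 bp upstream to 1000 bp downstream. Landsberg reads were mapped to the Columbia genome. The deposited fold enrichment is a linear ratio at the summit, and the deposited significance is the −log10 of the p and q values. Both were used as the authors wrote them, within a list. Blank lines (230 in the day 4 list) were dropped.

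Peaks were compared in Python 3.11.15 (SciPy 1.17.1, NumPy 2.4.6). Summits were classed in the RefSeq TAIR10.1 annotation, whose chromosome lengths equal those of TAIR10, in the order coding exon, UTR, noncoding exon, intron and promoter. Peaks named are the 5 of highest fold enrichment in each class, the 3 largest rank gains and losses, the loci with most peaks, and the assigned list genes; further genes were named after their values were seen. Of the 210 list entries, 208 matched reference symbols. Of the loci assigned, 12 of 527 and 23 of 1045 were absent from the annotation. The 10 feature tests were two-sided Fisher's exact tests with Benjamini-Hochberg adjustment. The calls were tested on simulated data, with independent peaks and true differences about as large as that for coding exons. Smaller differences and clustered peaks were not simulated. Alternatives changed the overlap rule, threshold, list length, gene window and motif. Mock reads were not analysed here.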

Additional observations from a re-analysis of the deposited data

How the results depend on the processing

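The day 2 share kept (83.5%) was 51.0% with a reciprocal overlap of 50%, 75.3% with summits within 150 bp, 90.9% when both lists were limited to peaks at −log10 q of 10 or more, 97.1% with that limit in the day 2 list only, 63.5% against a day 4 list cut by fold enrichment to the length of the day 2 list and 87.9% outside coding exons. The newly called share (59.0%) became 73.4%, 70.9%, 41.2% and 41.0% under the reciprocal overlap, the limit in both lists, the limit in the day 4 list only and the shortened day 4 list. Over genes, the kept share was 85.9% and the newly assigned share 72.8% with the limit in both lists, and 62.2% and 41.0% with the shortened day 4 list. Day 4 peaks were wider than day 2 peaks, which the reciprocal rule weighs directly. Own gene assignment left both gene shares within their intervals.

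The coding-exon difference between kept and lost peaks passed the test under every alternative run. The CArG difference of 6.95 points between kept and lost peaks no longer passed for peaks with −log10 q under 10 (5.21), with a window of 100 bp either side (7.66), with 1 peak per group of summits (7.07) and outside coding exons (6.57). It passed with summits within 150 bp (8.25) and with 1 mismatch in the box allowed (18.5). The promoter difference of 13.5 points no longer passed with summits within 150 bp (10.6), under −log10 q of 10 (13.5), with 1 peak per group (12.7) and outside coding exons (6.20). It passed with 3000 bp in place of 1000 bp upstream (27.0). The GA-rich difference of 4.77 points between kept and newly called peaks no longer passed under −log10 q of 10 (4.99) or with 1 peak per group (3.02). It passed under the other alternatives. The SEP3 difference of 9.95 points at day 2 did not pass in the main test, with summits within 150 bp (8.34) or under −log10 q of 10 (4.35). It passed with 1 peak per group (16.4) and outside coding exons (20.7).

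Differences that passed no test changed sign in 7 cases, namely CArG kept minus newly called (-0.717) and coding exon kept minus newly called (-0.583) under −log10 q of 10, coding exon kept minus newly called with 1 peak per group (-0.0179), and GA-rich kept minus lost with summits within 150 bp (-1.22), 6 alternating bases (-0.557), 1 peak per group (-4.03) and outside coding exons (-3.41). The groups of summits within 3000 bp and the peaks outside coding exons were chosen after seeing the data. No paired analysis was possible because the deposited lists pool the replicates. A peak missing from a list can be a bound site under the threshold, since read depth and mock signal were not analysed here.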

Other observations

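Summits in exons of noncoding transcripts made up 7.65% of kept day 4 peaks (30 of 392, 5.41 to 10.7%) and 2.30% of newly called peaks (13 of 564, 1.35 to 3.90%). They made up 7.45% of kept and 8.54% of lost day 2 peaks. These shares were chosen after their values were seen and were not tested.

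Chromosome 1 held 32.3% of newly called peaks (28.5 to 36.2%) and 26.0% of kept day 4 peaks (21.9 to 30.6%), while chromosome 5 held 21.1% (17.9 to 24.7%) and 26.3% (22.2 to 30.8%). Within each chromosome the intervals overlapped.

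At AT4G32020 the day 2 list held 4 lost peaks (3.62, 4.30, 3.08 and 3.34) and the day 4 list a single newly called peak (2.28), whose summit lay 419 bp from the nearest of them. At CLE43 the day 2 peak (4.77) and the day 4 peak (4.90) lay 2058 bp apart.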
